A study of Bos taurus with 56 samples.

Results

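Bovine chromosomes 13 and 23 were followed through oocyte maturation and early embryo development as sets of accessible regions. The members were all peaks of the 11 deposited peak lists that lie on chromosome 13 or chromosome 23, 25389 and 16455 peaks, or 41844 of 673059 peaks in all. Both chromosomes were chosen on the list of germinal vesicle (GV) oocytes, where they ranked 2 and 3 of 30 chromosomes by peak density, at 2.11 and 1.92 times the mean of that list. Chromosome 18 lay above them at 2.38 times, and chromosome 25 came next below at 1.73 times. The GV values are therefore given as a description, without a test.

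The assay was ATAC-seq on pooled cattle (Bos taurus) oocytes or embryos, where a transposase inserts sequencing adapters into open DNA. The stages were GV oocytes (6 libraries), metaphase II (MII) oocytes (5), 2-cell (6), 4-cell (6), 8-cell (5) and 16-cell embryos (5), morulae derived in vivo (4) and morulae without that label (6), blastocysts derived in vivo (4) and blastocysts without that label (3), and day 14 elongating embryos (6). The labels name no treatment, breed or age, and do not say how embryos without the in vivo label were made. The authors merged the libraries of each stage into 1 list of positions, so the spread between libraries, the read depth and the height of a peak were not analysed here. Lists held 730 peaks (MII oocytes) to 372509 (day 14), and every interval below is a 95% interval that covers counting error over peaks only.

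A GV oocyte is arrested in the first meiotic prophase with its chromatin inside an intact nucleus, whereas the chromosomes of an MII oocyte are condensed on a spindle. The bovine embryo relies on stored maternal products at first and switches on most of its own genes around the 8-cell to 16-cell stage. By the RefSeq gene table of another assembly, ARS-UCD2.0, chromosome 13 carries the imprinted GNAS gene and the prion protein gene PRNP, and chromosome 23 carries the bovine leukocyte antigen genes of the major histocompatibility complex and many histone genes. Positions here are those of build UMD3.1, so no gene was assigned to a peak, no sequence was read, and the labelled stages were not checked against marker genes.

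High density on both chromosomes was a feature of the GV oocyte list and did not carry over to the next lists. On chromosome 13 the count of peaks was 293 in GV oocytes, 24 in MII oocytes, 68 at the 2-cell, 145 at the 4-cell, 1793 at the 8-cell and 2538 at the 16-cell stage, then 2324 in morulae, 65 in blastocysts and 16424 at day 14. Divided by the mean density of the same list, these counts gave 2.11, 1.04, 0.815, 0.788, 0.957, 1.06, 0.826, 0.604 and 1.39 times in the same order of stages. Chromosome 13 thus stayed between 0.604 and 1.06 times the mean from MII oocytes to blastocysts in the lists without the in vivo label, and was above it again at day 14, where the interval was 1.37 to 1.41 times and 6 chromosomes were denser. Because the chromosomes were picked for a high GV value, a lower value in other lists is in part built into the choice.

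Chromosome 23 took another course after the oocyte. Its counts were 166 in GV oocytes, 12 in MII oocytes, 31 at the 2-cell, 130 at the 4-cell, 1364 at the 8-cell and 1690 at the 16-cell stage, 1921 in morulae, 26 in blastocysts and 9784 at day 14. Relative to the list means this was 1.92, 0.833, 0.596, 1.13, 1.17, 1.13, 1.10, 0.388 and 1.33 times. At the 2-cell stage chromosome 23 was the sparsest of the 30 chromosomes (interval 0.405 to 0.843 times), and at the 8-cell stage it ranked 5 of 30 (interval 1.11 to 1.23 times). Its density exceeded that of chromosome 13 in every list from the 4-cell stage to the morula, and the intervals of the pair did not overlap at the 4-cell stage, at the 8-cell stage or in either morula list. In blastocysts both chromosomes lay below the list mean, with intervals of 0.467 to 0.768 times on chromosome 13 and 0.254 to 0.567 times on chromosome 23. They ranked 18 and 27 of 30. Values below the mean were common in that list, where chromosome 27 reached 3.40 times and the chromosome at rank 11 stood at 0.941 times.

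In all 10 lists other than that of GV oocytes, the interval of chromosome 13 lay above the list mean in 2, below it in 5 and across it in 3. For chromosome 23 the interval lay above the mean in 5 lists, below it in 3 and across it in 2. The GV value of chromosome 13 was 1.52 times its highest value elsewhere, and that of chromosome 23 was 1.44 times, in both cases against the day 14 list. For MII oocytes the intervals were wide, 0.669 to 1.53 times on chromosome 13 and 0.432 to 1.45 times on chromosome 23, since the list holds few peaks.

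**Figure D1:**
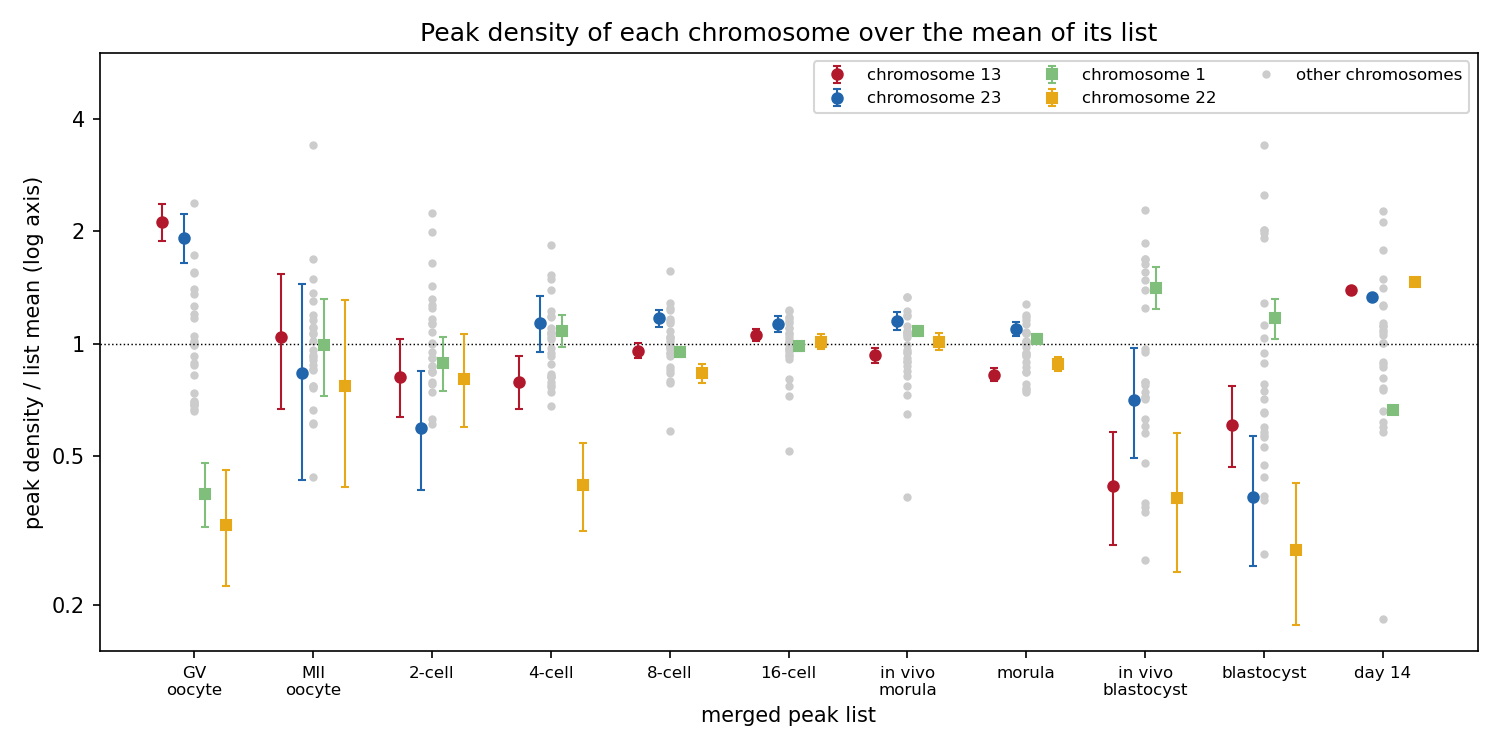
Peak density of each chromosome divided by the mean density of its list (log axis) for the 11 merged lists; bars on chromosomes 13, 23, 1 and 22 are 95% exact intervals for counting error, and grey points are the other chromosomes. Chromosomes 13 and 23 sit at 2.11 and 1.92 times in GV oocytes and near or below 1 in MII oocytes and 2-cell embryos, and of the 4 named chromosomes all but chromosome 1 sit above 1 at day 14.

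Chromosomes 1 and 22, the sparsest in GV oocytes at 0.395 and 0.326 times the list mean, gave the yardstick at the low end. In GV oocytes chromosome 13 was 5.35 times as dense as chromosome 1 and 6.48 times as dense as chromosome 22, and chromosome 23 was 4.86 and 5.88 times as dense. In MII oocytes the same ratios were 1.05 and 1.35 for chromosome 13 and 0.841 and 1.08 for chromosome 23. Of the 43 MII peaks of chromosome 1, 14 lay in the window from 145 to 146 Mb. Without the fullest window of each chromosome, the MII densities were 0.923 and 0.639 times on chromosomes 13 and 23. On chromosomes 1 and 22 they were 0.685 and 0.665 times. The order of GV oocytes did not return as a whole at day 14. There chromosomes 13 and 23 were 2.10 and 2.00 times as dense as chromosome 1, but 0.951 and 0.908 times as dense as chromosome 22, which stood at 1.46 times its list mean (interval 1.44 to 1.49). In blastocysts chromosome 1 exceeded both, at 1.17 times the mean, with 120 of its 236 peaks in the window from 145 to 146 Mb. Without the fullest window of each chromosome, chromosomes 13 and 23 stood at 0.537 and 0.304 times and chromosome 1 at 0.598 times, close to chromosome 13.

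The GV peaks were not confined to a few windows on either chromosome, but their counts along it were uneven. The 3 fullest windows of 1 Mb held 11.3% of them on chromosome 13 and 21.7% on chromosome 23, and 13 and 14 windows held none. Each chromosome was cut into windows of 1 Mb, and a peak was counted in the window that held its middle. On chromosome 13, 72 of 85 windows (84.7%) held a GV peak, with a median of 3 peaks per window, and on chromosome 23 it was 39 of 53 windows (73.6%) with a median of 2. On the other 28 chromosomes 55.7% of windows held a GV peak and the median was 1. Windows with 3 or more GV peaks made up 51.8% of chromosome 13 and 43.4% of chromosome 23, against 20.9% of the other chromosomes. Since both chromosomes were chosen for their GV density, fuller windows than elsewhere follow in part from the choice and are a description only. The fullest window held 13 peaks on either chromosome, from 77 to 78 Mb on chromosome 13 and from 48 to 49 Mb on chromosome 23. Without these windows the densities were 2.05 and 1.81 times the list mean. The variance of the counts over their mean was 2.59 on chromosome 13 and 3.64 on chromosome 23. It was lower on the sparse chromosomes 1 and 22, at 1.72 and 1.28. Over the pooled windows of the other 28 chromosomes it was 4.71. That value also holds the differences between those chromosomes and 1 window with 70 GV peaks.

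**Figure D2:**
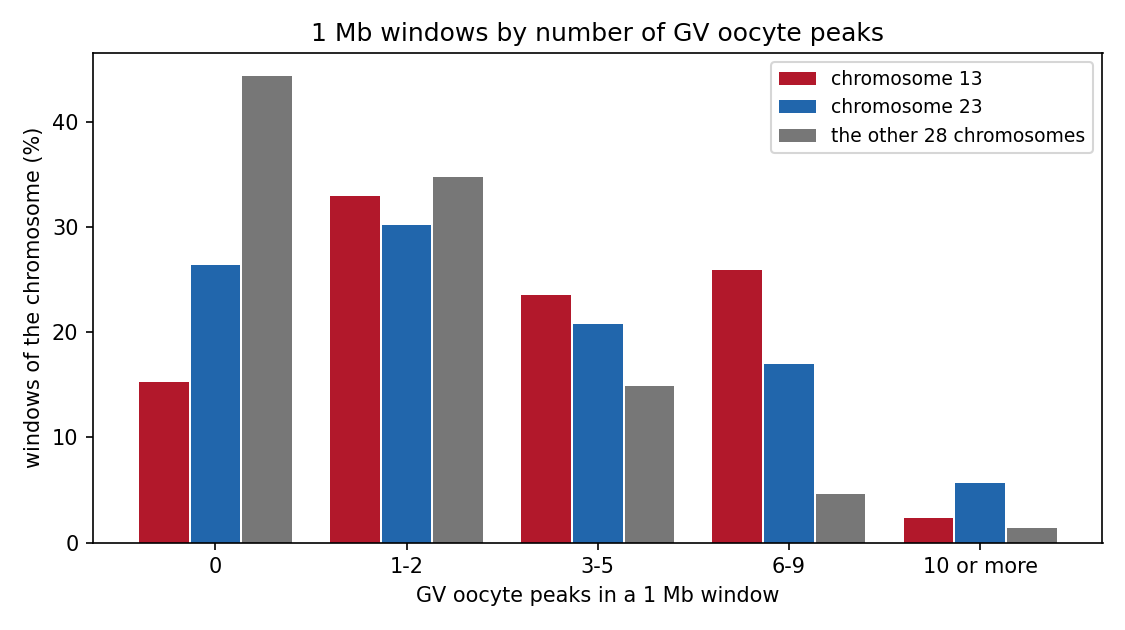
Share of 1 Mb windows (percent of the windows of each set) by the number of GV oocyte peaks they hold, for chromosome 13 (85 windows), chromosome 23 (53) and the other 28 chromosomes (2540). Empty windows make up 15.3% of chromosome 13 and 26.4% of chromosome 23, against 44.3% of the others, and windows with 6 to 9 peaks 25.9% and 17.0%, against 4.65%. Both chromosomes were chosen for a high density of these GV peaks, so fuller windows follow in part from the choice.

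Along chromosome 13 the GV density climbed from the start of the chromosome to its end. Bovine autosomes have their centromere at one end, and by convention it is the start. Cut into 4 parts of equal length, chromosome 13 held 27, 57, 80 and 129 GV peaks, or 0.779, 1.64, 2.31 and 3.72 times the list mean, so that its first part was not dense. Chromosome 23 held 29, 44, 29 and 64 GV peaks in its 4 parts, 1.34, 2.03, 1.34 and 2.96 times the mean. The last part held 44.0% of the GV peaks of chromosome 13 and 38.6% of those of chromosome 23, and on the other autosomes it held 44.3%, so a dense last part was common to the GV list. In the 8-cell list the densities of the 4 parts were 0.649, 0.875, 1.02 and 1.29 times the mean on chromosome 13. On chromosome 23 they were 1.22, 0.935, 1.66 and 0.856 times, so the order along the chromosome was another one, with the last part sparsest.

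**Figure D3:**
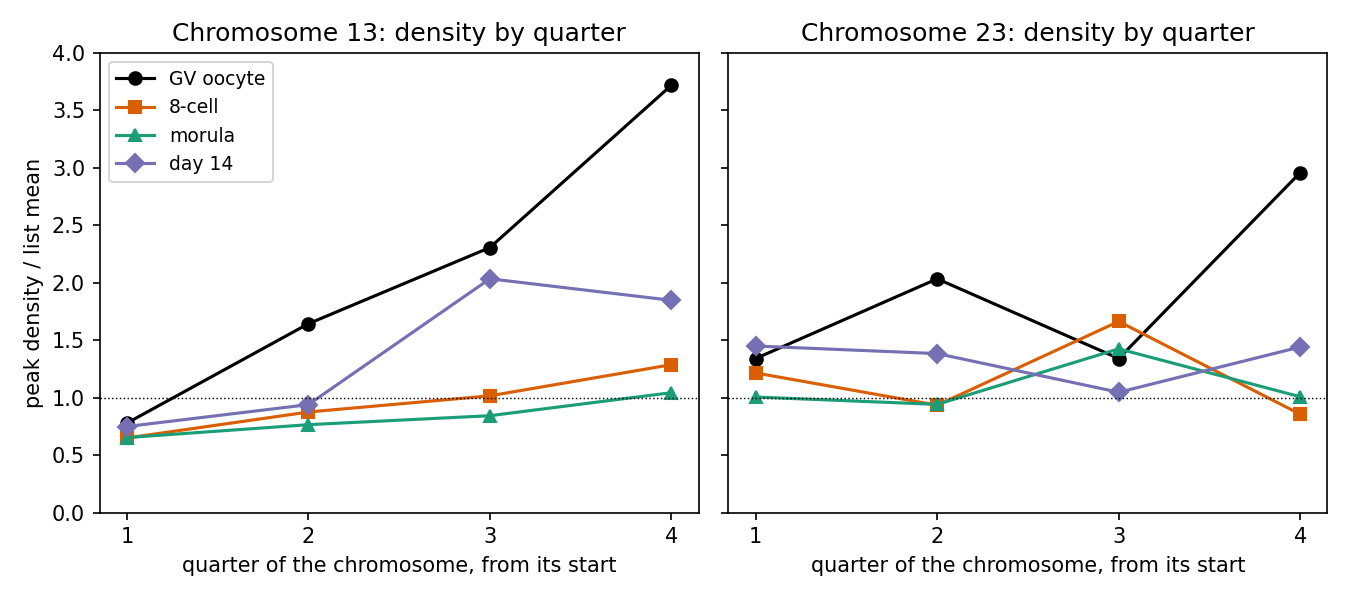
Peak density of 4 equal parts of chromosome 13 (left) and chromosome 23 (right), in order from the start of the chromosome and divided by the list mean, for the GV oocyte, 8-cell, morula and day 14 lists. In GV oocytes the last part is the densest on both chromosomes, at 3.72 and 2.96 times, and in 8-cell embryos the densest part of chromosome 23 lies before the last, at 1.66 times.

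The 2 chromosomes differed in where their GV peaks lay relative to the day 14 landscape. The windows of each chromosome were ranked by their day 14 count and split into a lower and an upper set. On chromosome 13 the lower 42 windows held 105 of the 293 GV peaks (35.8%), rank 2 of 30 chromosomes, and on chromosome 23 the lower 26 windows held 19 of 166 (11.4%), rank 28. The other 28 chromosomes together had 21.2% of their GV peaks there. GV density was thus above the list mean in both sets of windows on chromosome 13, at 1.52 times in the lower and 2.65 times in the upper set. On chromosome 23 it was 0.444 times in the lower and 3.31 times in the upper set. Across windows, Spearman's rho between GV and day 14 counts was 0.47 on chromosome 13 (85 windows) and 0.76 on chromosome 23 (53 windows), and 0.42 and 0.46 on chromosomes 1 and 22. Windows of 1 chromosome share their list, and gene and base content vary along it, so these coefficients are a description only.

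The windows with the most peaks changed between stages. On chromosome 13 the fullest window lay from 49 to 50 Mb in MII oocytes (3 peaks), from 83 to 84 Mb in 2-cell embryos (5) and from 75 to 76 Mb in 4-cell embryos (9). It lay from 65 to 66 Mb at both the 8-cell and 16-cell stages (63 and 75 peaks), from 38 to 39 Mb in morulae (58) and from 54 to 55 Mb at day 14 (789). The GV window from 77 to 78 Mb ranked 65 of 85 in 8-cell embryos, with 11 peaks, and 23 at day 14, with 260. In blastocysts 3 windows of chromosome 13 tied at 8 peaks, the first of them from 0 to 1 Mb.

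On chromosome 23 the fullest window was the same from the 8-cell stage to the morula. The window from 31 to 32 Mb led 4 lists, with 126 peaks at the 8-cell and 109 at the 16-cell stage, 83 in morulae derived in vivo and 98 in morulae without that label. The same window held 2 GV peaks, no MII peak, 1 peak in 2-cell and 5 in 4-cell embryos, and at day 14 it held 236 and ranked 16 of 53. It made up 9.24% of the 8-cell peaks of the chromosome, and without it the 8-cell density of chromosome 23 was 1.08 times the mean instead of 1.17 times, outside the counting interval. Earlier, the fullest windows lay from 28 to 29 Mb in MII oocytes (3 peaks), from 7 to 8 Mb in 2-cell embryos (4, tied with the fullest GV window) and from 15 to 16 Mb in 4-cell embryos (8). At day 14 the fullest was from 17 to 18 Mb, with 510 peaks, and this window ranked 2 in GV oocytes, with 12. In both blastocyst lists it was the window from 9 to 10 Mb, with 6 peaks each, tied with 1 other window in the in vivo list.

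Median peak widths on both chromosomes lay close to those of their lists. In GV oocytes the median width was 354 bp on chromosome 13 and 369 bp on chromosome 23, against 371 bp on the other chromosomes, and the middle 50% of widths ran from 301 to 447 bp and from 299 to 442 bp, against 312 to 474 bp. Over all 11 lists the ratio of the median to that of the other chromosomes lay between 0.954 and 1.04 on chromosome 13. On chromosome 23 it lay between 0.806 and 1.07, and its lowest value came from the 12 MII peaks, with a median of 252 bp against 312 bp. Peaks of 1000 bp or more were few in GV oocytes, 3 of 293 on chromosome 13 and 2 of 166 on chromosome 23, or 1.02% and 1.20% against 2.40% elsewhere. In morulae such peaks made up 21.4% on either chromosome, against 21.8% elsewhere. In blastocysts derived in vivo they were 9 of 34 on chromosome 13 (26.5%) and 3 of 36 on chromosome 23 (8.33%), against 9.54% elsewhere.

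The widest GV peak of chromosome 13 spanned 1295 bp from 77751344 to 77752638, in the fullest GV window, and overlapped a peak in the 16-cell list and in no other. The next widest, from 83063764 to 83065025 (1262 bp) and from 49001497 to 49002644 (1148 bp), overlapped peaks in all 11 lists. On chromosome 23 the widest GV peak, from 27332866 to 27333953 (1088 bp), overlapped peaks at the 4-cell, 8-cell and 16-cell stages, in both kinds of morula and at day 14, and the peak from 49409950 to 49411017 (1068 bp) in the same ones other than 4-cell. The last of these, from 48858316 to 48859054 (739 bp), was found again at day 14 alone. At the 8-cell and 16-cell stages, in morulae and at day 14 the widest peaks exceeded those of GV oocytes on both chromosomes. On chromosome 13 they spanned 4087 bp at the 8-cell stage (26228553 to 26232639), 3514 bp at the 16-cell stage (83925034 to 83928547), 5015 bp in morulae (48211797 to 48216811) and 5296 bp at day 14 (43461058 to 43466353). On chromosome 23 they spanned 5379 bp at the 8-cell stage (28173434 to 28178812), 5499 bp at the 16-cell stage (30711642 to 30717140), 7578 bp in morulae (7234912 to 7242489) and 5588 bp at day 14 (7234917 to 7240504). The morula and day 14 peaks of chromosome 23 thus lay in the same place, and the 8-cell peak of chromosome 13 and the 16-cell peak of chromosome 23 each overlapped a GV peak.

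The widest peak of chromosome 13 lay in 1 place in MII oocytes, 2-cell embryos, 4-cell embryos and both blastocyst lists. It overlapped a peak in all 11 lists, and spanned 1875 bp in MII oocytes (83063644 to 83065518), 3580 bp in 2-cell embryos (83063674 to 83067253), 3892 bp in 4-cell embryos (83063321 to 83067212) and 3804 bp in blastocysts (83063532 to 83067335). Chromosome 23 had no such site. Its widest peak was 552 bp in MII oocytes (4140291 to 4140842) and 551 bp in 2-cell embryos (52032977 to 52033527), each found in its own list only. In 4-cell embryos it spanned 1391 bp at the place of the widest GV peak (27331972 to 27333362), and in blastocysts 967 bp (9220188 to 9221154).

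Sharing between consecutive stages was measured as the share of peaks of the shorter list that overlapped a peak of the longer one by at least 1 bp. For each chromosome it was set against the other 28 chromosomes of the same list as a difference in percentage points with a Newcombe interval. These 20 differences were not adjusted for their number, and neighbouring peaks were counted as independent. Of the 24 MII peaks on chromosome 13, 6 overlapped a GV peak (25%), and of the 12 on chromosome 23 it was 1 (8.33%), beside 19.2% of the whole MII list. In the 2-cell list 4 of the 24 MII peaks of chromosome 13 and none of the 12 of chromosome 23 were found (whole list 23.3%). Of the 2-cell peaks 14 of 68 on chromosome 13 and 5 of 31 on chromosome 23 overlapped a 4-cell peak (whole list 26.3%). The intervals of all 6 differences held 0 with the 1 bp rule. With 50% of both peaks shared, MII peaks of chromosome 13 were found in GV oocytes 14.3 points more often than the others (interval 1.10 to 34.3). This difference was 9.33 points among the 11 peaks of at least 329 bp. It was 3.92 points among the 19 peaks left without regions found in 8 or more lists, and both of these intervals held 0. Among the 18 peaks of at least 329 bp in 2-cell embryos, the difference of chromosome 23 in the 4-cell list was -26.1 points (interval -37.3 to -3.42).

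The 4-cell peaks of chromosome 23 were found at the 8-cell stage less often than those of any other chromosome. Of 130 peaks, 23 overlapped an 8-cell peak (17.7%, interval 11.6% to 25.4%), against 33.5% on the other 28 chromosomes and 33% over the whole list, a difference of -15.8 points (interval -21.6 to -8.26). Of the 145 on chromosome 13, 42 did so (29%), a difference of -4.55 points (interval -11.4 to 3.40). The density of chromosome 23 was 1.17 times the list mean at the 8-cell stage and 1.13 times at the 4-cell stage, while few of its 4-cell sites recurred. Among the 71 of its 4-cell peaks of at least 329 bp the difference was -10.5 points and its interval held 0. Of the 8-cell peaks, 851 of 1793 on chromosome 13 (47.5%) and 615 of 1364 on chromosome 23 (45.1%) overlapped a 16-cell peak, beside 45% of the whole list. The difference of chromosome 13 was 2.54 points (interval 0.201 to 4.89), and that of chromosome 23 was 0.167 points with an interval that held 0.

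Between the 16-cell stage and the morula the chromosomes moved apart. Of the 16-cell peaks of chromosome 13, 1013 of 2538 (39.9%) overlapped a morula peak, the lowest share of 30 chromosomes, against 47.4% on the others (a difference of -7.44 points, interval -9.36 to -5.48). On chromosome 23 it was 863 of 1690 (51.1%), rank 4 and a difference of 3.71 points (interval 1.30 to 6.12), beside 47.2% of the whole list. The density of chromosome 13 moved the same way, at 0.826 times the list mean in morulae against 1.06 times at the 16-cell stage. When 50% of both peaks had to overlap, the chromosome 13 share was 21.9% against 22.8%, a difference of -0.90 points whose interval held 0, so the lower share was seen with the 1 bp rule only. The chromosome 23 difference was then 1.69 points, and its interval held 0 as well.

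**Figure D4:**
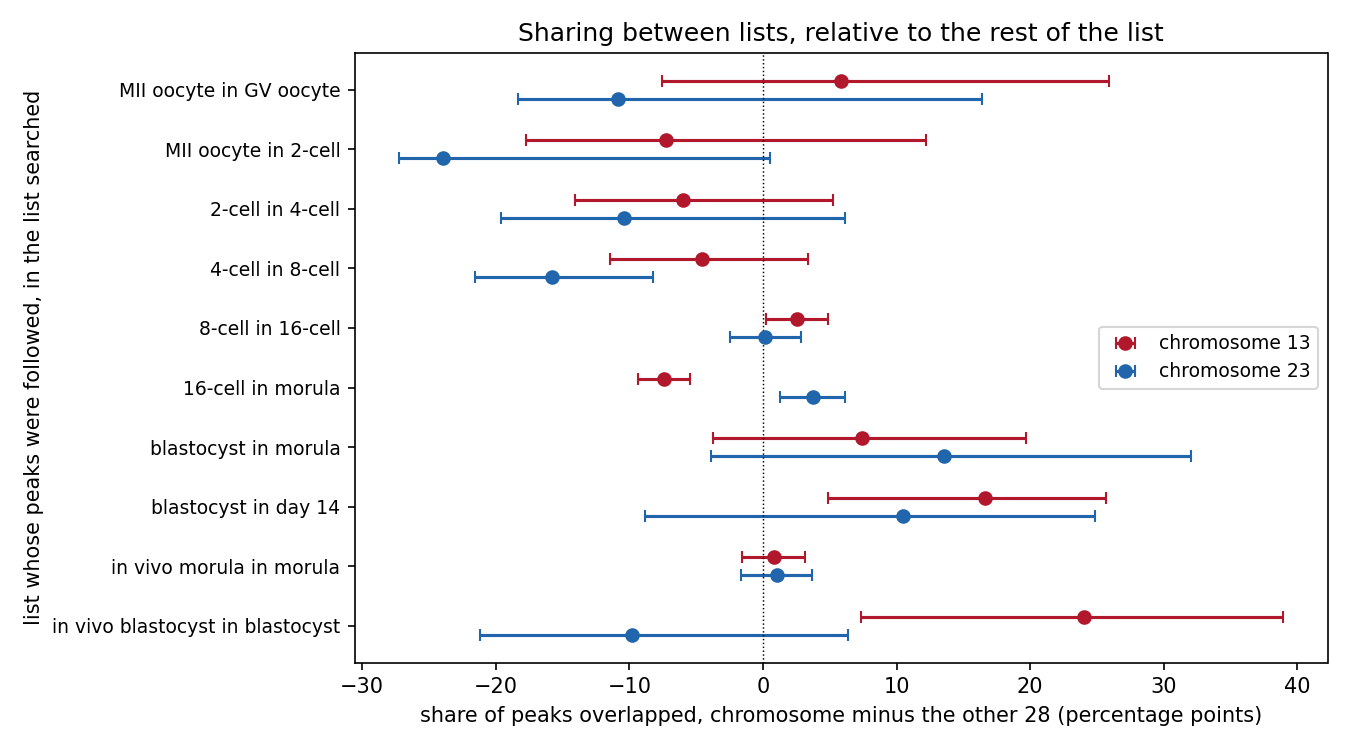
Share of peaks of 1 list found in another, chromosome 13 or 23 minus the other 28 chromosomes, in percentage points, with Newcombe 95% intervals for counting error. The interval lies below 0 for 4-cell peaks of chromosome 23 in the 8-cell list (-15.8 points) and for 16-cell peaks of chromosome 13 in the morula list (-7.44 points).

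Blastocyst peaks were few on both chromosomes, and those present were often found at day 14. Of the blastocyst peaks of chromosome 13, 26 of 65 (40.0%) overlapped a morula peak and 49 of 65 (75.4%, interval 63.1% to 85.2%) a day 14 peak. On chromosome 23 it was 12 of 26 (46.2%) and 18 of 26 (69.2%, interval 48.2% to 85.7%). Over the whole list the shares were 32.8% in the morula and 59.1% at day 14. The day 14 share of chromosome 13 stood 16.6 points above that of the other chromosomes (interval 4.83 to 25.7). It was 10.1 points with 50% of both peaks shared and 7.08 points among its 23 peaks of at least 329 bp, and both intervals held 0. On chromosome 23 the day 14 interval held 0, at 10.5 points (-8.80 to 24.9). Its morula share differed by 13.6 points with an interval that held 0, and by 17.3 points (interval 1.99 to 36.5) with 50% of both peaks shared.

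Embryos derived in vivo were set against embryos of the same stage without that label. Morulae derived in vivo had 1681 peaks on chromosome 13 and 1295 on chromosome 23, 0.931 and 1.15 times their list mean, against 2324 and 1921 peaks and 0.826 and 1.10 times without the label. The intervals on chromosome 13, 0.888 to 0.976 times in vivo and 0.793 to 0.860 times without the label, did not overlap. Such a shift was not particular to chromosome 13. Its in vivo value over the other was 1.13, rank 26 from the lowest of 30 chromosomes, and that of chromosome 22 was 1.15. Of the in vivo peaks 61.6% on chromosome 13 and 61.9% on chromosome 23 were found in the other morula list, beside 60.8% of the whole list. With 50% of both peaks shared, chromosome 13 stood 2.50 points above the others (interval 0.163 to 4.88). The fullest window of chromosome 13 in vivo lay from 23 to 24 Mb, with 61 peaks, against 51 there without the label. The widest in vivo peaks spanned 4423 bp on chromosome 13 (73712430 to 73716852) and 5861 bp on chromosome 23 (31668849 to 31674709).

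In blastocysts derived in vivo chromosome 23 had the higher value of the pair, and in those without the label chromosome 13 had it. Blastocysts derived in vivo had 34 peaks on chromosome 13 and 36 on chromosome 23, 0.415 and 0.705 times the list mean. Without the label it was 65 and 26 peaks and 0.604 and 0.388 times. In either list the intervals of the 2 chromosomes overlapped, so their order was not settled. By the bases that peaks covered, the values were 0.593 and 0.676 times in vivo and 0.640 and 0.292 times without the label. The intervals with and without the label overlapped on both chromosomes, 0.288 to 0.579 against 0.467 to 0.768 times on chromosome 13 and 0.495 to 0.973 against 0.254 to 0.567 times on chromosome 23. Of the in vivo peaks of chromosome 13, 20 of 34 (58.8%, interval 40.7% to 75.4%) overlapped a blastocyst peak without the label, 24.0 points above the other chromosomes (interval 7.31 to 38.9). Without regions in 8 or more lists 20 peaks were left, and the difference was 16.0 points with an interval that held 0. On chromosome 23 it was 9 of 36 (25%), beside 35% of the whole list. The fullest in vivo window of chromosome 13 lay from 50 to 51 Mb, with 6 peaks in both blastocyst lists. The widest in vivo peaks were 4061 bp on chromosome 13 (83063486 to 83067546), at the site shared by all 11 lists, and 1920 bp on chromosome 23 (9219272 to 9221191).

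GV peaks of both chromosomes were followed into every other list. In MII oocytes 6 of the 293 GV peaks of chromosome 13 (2.05%) and 1 of the 166 of chromosome 23 (0.602%) were found, beside 3.06% of the whole GV list. In 2-cell embryos it was 6 (2.05%, interval 0.755% to 4.40%) and 0 (interval 0% to 2.20%), beside 8.76%, and in 4-cell embryos 13 (4.44%) and 5 (3.01%), beside 12.8%. Both chromosomes fell among the lowest ranks there, and chromosome 23 had the lowest share of the 30 in the 2-cell and 4-cell lists. The chromosomes were chosen for many GV peaks, and the 2-cell list held only 68 and 31 peaks on them. Low shares of GV peaks are therefore in part built into the choice and the short lists. Counted from the MII list, 6 of 24 peaks of chromosome 13 overlapped a GV peak (25%), beside 19.2% of that list. The whole-list shares are raised by a few chromosomes with many recurring sites, up to 38.1% of GV peaks in the 2-cell list on 1 chromosome, while the median of the other 28 was 6.09%. Without the regions found in 8 or more lists, the 2-cell shares were 0.351% on chromosome 13 and 0% on chromosome 23, against 1.80% on the other chromosomes, and the intervals of both differences held 0.

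From the 8-cell stage on, chromosome 13 kept fewer of its GV sites than the rest of the list. At the 8-cell stage 56 of its GV peaks (19.1%, interval 14.8% to 24.1%) were found, beside 29.5% of the whole list. At the 16-cell stage it was 64 (21.8%, whole list 28.7%). In morulae derived in vivo it was 46 (15.7%, whole list 25%), and in morulae without that label 69 (23.5%, whole list 33.9%). The differences from the other chromosomes ranged from -7.68 points at the 16-cell stage to -11.5 points at the 8-cell stage, and no interval held 0. Some single chromosomes had lower shares. Chromosome 13 ranked 27 of 30 at the 8-cell stage, 23 at the 16-cell stage, 27 in morulae derived in vivo and 24 in those without that label. At day 14 it ranked 24. In at least 1 of these 4 lists 93 GV peaks of chromosome 13 were found (31.7%), beside 42.3% of the whole list. At day 14 it was 130 (44.4%, interval 38.6% to 50.3%), beside 53.1%, a difference of -9.47 points (interval -15.3 to -3.53). Without the regions found in 8 or more lists the intervals for the 8-cell, both morula and day 14 lists still lay below 0, and that for the 16-cell list held 0. With 50% of both peaks shared, the day 14 interval held 0.

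The later shares of chromosome 23 depended on the rule for overlap and on the recurring regions. At the 8-cell stage 36 of its 166 GV peaks were found (21.7%), and at the 16-cell stage 36 (21.7%), differences of -8.93 and -7.83 points whose intervals, -14.7 to -1.91 and -13.6 to -0.818, did not hold 0. Without regions found in 8 or more lists these differences were -2.96 and -1.50 points and their intervals held 0. In morulae derived in vivo 37 (22.3%), in morulae without that label 50 (30.1%) and at day 14 85 (51.2%) were found, and the intervals of these 3 differences held 0. With 50% of both peaks shared, those for the morulae without the label and for day 14 lay below 0, at -5.58 and -7.28 points. In blastocysts derived in vivo 6 GV peaks of chromosome 13 and 0 of chromosome 23 were found (whole list 8.12%), and in blastocysts without that label 8 and 1 (whole list 9.95%).

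GV peaks in no other list numbered 144 on chromosome 13 (49.1%, interval 43.3% to 55.0%) and 69 on chromosome 23 (41.6%, interval 34.0% to 49.5%), beside 38.7% of the whole GV list. Chromosome 13 stood 11.3 points above the other chromosomes (interval 5.41 to 17.2), and 6 chromosomes had a higher share. On chromosome 23 the difference was 3.71 points (interval -3.67 to 11.5). Divided by the mean density of the same kind of peak, GV peaks in no other list reached 2.68 times on chromosome 13, the highest of 30, and 2.06 times on chromosome 23. GV peaks found in another list reached 1.75 and 1.83 times. Both kinds are parts of the GV peaks on which the chromosomes were chosen, so these shares, differences, densities and ranks are a description only. GV peaks in no other list had a median width of 353 bp on chromosome 13 and 355 bp on chromosome 23, against 361 and 377 bp for those found elsewhere.

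**Figure D5:**
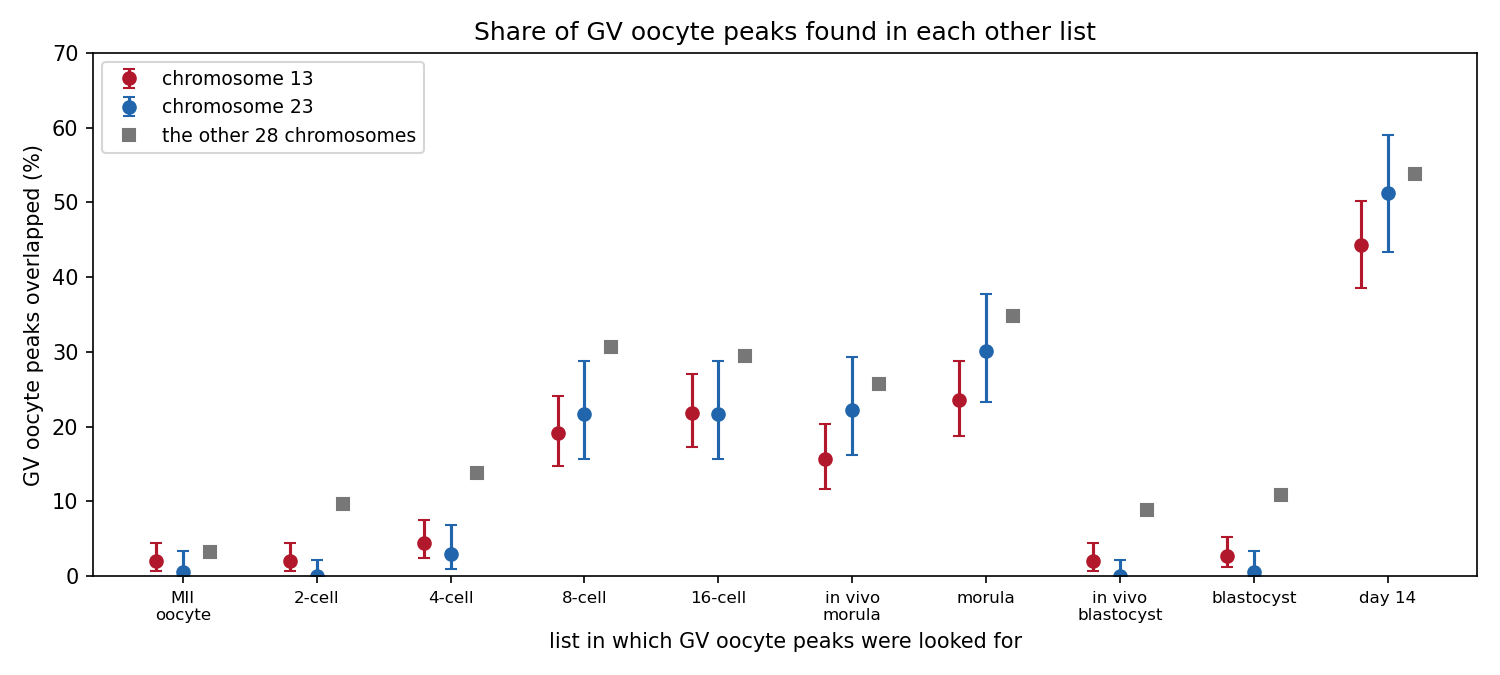
Share of the GV oocyte peaks (percent) that overlap a peak of each other list, for chromosome 13 (293 peaks), chromosome 23 (166) and the other 28 chromosomes (3923), with 95% exact intervals on chromosomes 13 and 23. Chromosome 13 lies below the pooled value of the other 28 in every list, at 44.4% against 53.8% at day 14, and chromosome 23 has 0 of 166 peaks in the 2-cell list.

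When the peaks of all lists were joined into regions wherever they overlapped, chromosome 13 held 19246 regions and chromosome 23 held 11712. Regions found in 8 or more lists numbered 12 on chromosome 13 and 4 on chromosome 23, or 14.2 and 7.62 per 100 Mb, against 20.2 per 100 Mb on the other chromosomes. Chromosomes 1 and 22, sparse in the GV list, had 18.9 and 3.26 per 100 Mb, so recurring sites did not follow the order of GV density among these chromosomes. On chromosome 13, 3 regions were found in all 11 lists, from 883013 to 886779, from 49001094 to 49002973 and from 83063321 to 83067546, and no region of chromosome 23 was. A region of chromosome 13 from 48995095 to 48995589 was absent from 2-cell embryos alone, and 1 from 49011266 to 49011803 was absent from both lists derived in vivo.

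The other regions in 9 or more lists mostly had no oocyte peak. On chromosome 13, 6 regions had a peak at every embryo stage but none in GV or MII oocytes, of which 4 lay close together (5335610 to 5337684, 5337766 to 5341009, 5341287 to 5342688 and 5358773 to 5360212). The others lay from 63819776 to 63821355 and from 83069818 to 83073652. On chromosome 23, 2 regions, from 9218717 to 9221191 and from 9224733 to 9225772, had the same pattern and lay in the fullest window of the blastocyst lists. The region of chromosome 23 from 52343648 to 52346939 was absent from MII oocytes alone. Among regions that were open at the 8-cell and 16-cell stages and in both kinds of morula, there was a day 14 peak in 325 of 377 cases on chromosome 13 (86.2%) and in 291 of 330 on chromosome 23 (88.2%), against 83.3% on the other chromosomes.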

How the data were processed

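The values used were the start and end positions of peaks as the authors deposited them, 1 list per group with the chromosome beside them and no score or count. Series text in the labels says that peaks of single libraries of a stage were merged. The submitters' processing notes name Bowtie2 2.3, MACS2, bedtools, HOMER and build UMD3.1. What threshold, read shift and merging rule applied was not given in the sources used here. Each of them sets how many peaks a list holds. The starts were read as counted from 0 and are printed counted from 1.

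The chromosomes, lists and comparisons were chosen with earlier results of these data known. Chromosome length was the last position in any list (84.2 Mb for chromosome 13, 52.5 Mb for chromosome 23). Density was peaks per Mb over that of the whole list, with an exact Clopper-Pearson interval. Shares have exact intervals, and differences have Newcombe intervals. With 1 list per group no p-value was computed. The regions named were the widest peak and fullest 1 Mb window of each list, regions in 9 or more lists and the 3 widest GV peaks. Overlap counts were tested on simulated lists for the 10 comparisons, all of which were recovered, and were equal to those of bedtools 2.31.1 on the real lists. Alternatives were an overlap of 50% of both peaks, peaks of at least 329 bp, joining peaks closer than 500 bp, covered bases, autosomes as the base, windows of 0.5 and 2 Mb, and leaving out the fullest window or regions in 8 or more lists. Python 3.11.15, numpy 2.4.6, scipy 1.17.1 and matplotlib 3.10.9 were used.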

Additional observations from a re-analysis of the deposited data

How the results depend on the processing

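Densities over the list mean kept their values within the counting interval in 22 of 22 cases when peaks closer than 500 bp were joined. With peaks of at least 329 bp the density was 0.911 times for chromosome 23 in 4-cell embryos, and at day 14 it was 1.37 times for chromosome 13 and 1.43 times for chromosome 23. Without the fullest window it was 1.08 times for chromosome 23 at the 8-cell stage, and 1.34 and 1.29 times for chromosomes 13 and 23 at day 14. Over autosomes other than 13 and 23 the day 14 values were 1.35 and 1.29 times. By covered bases, chromosome 13 stood at 0.593 times in blastocysts derived in vivo, and chromosomes 13 and 23 at 1.37 and 1.39 times at day 14. With peaks of at least 329 bp, differences in sharing on chromosome 23 were -36.1 points for MII peaks in GV oocytes and -43.2 points for MII peaks in 2-cell embryos (3 peaks each), -26.1 points for 2-cell peaks in 4-cell embryos (18 peaks, interval -37.3 to -3.42) and 34.5 points for blastocyst peaks in morulae (6 peaks). With 50% of both peaks, 16-cell peaks in morulae differed by -0.90 points on chromosome 13 and by 1.21 points on chromosome 22, which reversed its sign. Both alternatives for the followed GV peaks were chosen after seeing the data. Without regions in 8 or more lists, the GV differences of chromosome 13 were -1.45 (2-cell), -3.88 (4-cell), -2.49 (blastocyst) and -1.15 points (blastocyst derived in vivo), and those of chromosome 23 were 0.384 (MII oocyte), -1.80, -3.19, -2.24 and -1.15 points. With 50% of both peaks they were -5.17 (8-cell), -3.38 (morula derived in vivo), -5.28 (morula), -5.22 (blastocyst) and -3.34 points (day 14) on chromosome 13. On chromosome 23 they were -6.27 (2-cell), -6.25 (blastocyst) and -6.22 points (blastocyst derived in vivo). The cause of these moves was not tested. The share of a chromosome's peaks in its fullest window moved in 10 of 22 cases with windows of 0.5 Mb, and in 10 of 22 with windows of 2 Mb. A window cannot hold more peaks than a wider one that contains it. The direction of these moves is therefore set by the window size, and they do not test the results. No paired analysis was possible because each group had 1 merged list, and for the same reason no replicate could be left out. The depth behind each list is unknown, so depth, calling and accessibility cannot be told apart in the length of a list, and its share of peaks found elsewhere moves with the length of the other list. Intervals treat neighbouring peaks as independent and leave out the spread between libraries and between embryos.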
